A study of Mus musculus with 6 samples.

Results

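The genes described here are 10 members of TGF-beta, activin and myostatin signalling, namely *Mstn*, *Gdf11*, *Inhba*, *Fst*, *Tgfb1*, *Tgfb2*, *Tgfb3*, *Tgfbr1*, *Tgfbr2* and *Acvr2b*. They were looked up by name among the 23231 genes with a read in any library, and 9 of them were found there. RNA-seq was performed on C2C12, an established line of mouse myoblasts that form multinucleated myotubes once serum is lowered. All cells had received lentivirus (multiplicity of infection 100) and puromycin selection (2 μg/ml) and were then differentiated for 5 days in medium with 2% horse serum. The 3 libraries of dCas9-KRAB cells carried a nuclease-dead Cas9 fused to the KRAB repressor domain. The 3 libraries of dCas9-KRAB-En5 cells carried the same fusion with sgRNAs against Myog-En5, an enhancer of *Myog*, which encodes the myogenic factor myogenin. Each library is a selected pool of transduced cells, and untreated cells were not analysed here. The labels do not say whether replicates were separate cultures, so p-values measure the spread between these libraries, which may be technical.

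TGF-beta family ligands are secreted dimers that bring type II and type I receptor kinases together, and the type I receptor then phosphorylates SMAD proteins that enter the nucleus. TGF-betas and activins act through SMAD2 and SMAD3, and so do myostatin and its close relative GDF11. Myostatin is the best known negative regulator of muscle mass, follistatin binds and blocks activin and myostatin, and TGF-beta inhibits the differentiation of myoblasts in culture.

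Myog-En5 was targeted at a pair of sites, shown because they define the dCas9-KRAB-En5 group. Both lie in GRCm38 between the small nuclear RNA gene *Gm24517* and *Myog* and overlap no annotated gene. sgRNA1 (chr1:134283252-134283274, plus strand) ends 6.71 kb before the start of *Myog*, and sgRNA2 (chr1:134283558-134283580, minus strand) ends 6.41 kb before it. The protospacers are given with the PAM in capitals.
Myog-En5-sgRNA1: gaaggggttactgtcggcagAGG
Myog-En5-sgRNA2: gaccggaagattgaaccactGGG

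Upstream sequence was examined for E-boxes (CANNTG), the element bound by myogenin and MyoD, for the TATA box (TATAAA) and for the SMAD box (CAGAC), on both strands. RefSeq sequence of GRCm38.p6 held windows of the 250 bases before the start for 8 of the 10 members. The windows of *Mstn* (chr1:53061390-53061639, plus strand), *Gdf11* (chr10:128891719-128891968, minus strand) and *Inhba* (chr13:16011601-16011850, plus strand) are given because *Gdf11* and *Inhba* had the largest differences among the members and *Mstn* is the closest relative of *Gdf11*. E-boxes and TATA boxes are in capitals.
Mstn: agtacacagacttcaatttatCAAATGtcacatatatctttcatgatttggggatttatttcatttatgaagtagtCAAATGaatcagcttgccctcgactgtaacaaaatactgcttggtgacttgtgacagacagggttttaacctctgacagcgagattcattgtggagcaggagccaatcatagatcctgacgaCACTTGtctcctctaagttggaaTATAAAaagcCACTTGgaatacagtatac
Gdf11: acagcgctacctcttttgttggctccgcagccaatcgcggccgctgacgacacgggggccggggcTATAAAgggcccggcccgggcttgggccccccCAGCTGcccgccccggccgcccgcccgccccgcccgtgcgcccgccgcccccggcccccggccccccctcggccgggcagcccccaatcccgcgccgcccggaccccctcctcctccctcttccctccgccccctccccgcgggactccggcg
Inhba: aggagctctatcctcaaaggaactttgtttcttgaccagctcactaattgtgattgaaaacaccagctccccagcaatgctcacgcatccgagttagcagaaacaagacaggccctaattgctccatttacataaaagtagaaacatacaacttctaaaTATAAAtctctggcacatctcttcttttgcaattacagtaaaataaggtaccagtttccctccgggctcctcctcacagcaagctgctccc
The *Mstn* window held 4 E-boxes and 2 SMAD boxes, the *Gdf11* window held 1 E-box and no SMAD box, and the *Inhba* window held neither. Each of these windows had a TATA box, which 12.4% of the 32851 mouse promoter windows of this length contained. At least 1 E-box was present in 66.2% of all windows and at least 1 SMAD box in 42.2%. Among the other members, *Tgfb2* had 1 E-box and *Tgfbr1* had 1 in one of its windows, while the windows of *Tgfb1*, *Tgfbr2* and *Acvr2b* had none. *Tgfb2* also had 2 SMAD boxes and 1 TATA box. *Tgfbr2*, *Acvr2b* and one window of *Tgfbr1* had 1 SMAD box each and no TATA box, and *Tgfb1* had neither. A match describes these letters and not a site of binding.

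The libraries held 40554323 to 73988425 counts in dCas9-KRAB and 31831093 to 40384720 in dCas9-KRAB-En5, so that a floor of 3 counts equalled 0.0405 to 0.0942 CPM (counts scaled to 1000000 per library, counting error only). For *Myog* itself, counts were 43211, 68488 and 74845 in the dCas9-KRAB libraries but 12, 0 and 0 in dCas9-KRAB-En5 (edgeR adjusted p = 5.34e-05). dCas9-KRAB-En5 replicate 3 stood apart, with 13991 genes listed against 17084 to 19395 in the other libraries and 20.6% of its counts in ribosomal protein genes against 9.12% to 16.7%. It had the lowest TPM (counts per gene length, scaled to sum to 1000000 in each library) of its group for all 9 detected members, as it did for 77.0% of the 14378 genes tested. In CPM this did not hold for *Tgfb1* (213, 253 and 282 in dCas9-KRAB-En5 replicates 1 to 3) or *Inhba* (18.4, 8.34 and 9.83). The TMM scaling factor used in edgeR was 0.730 for this library and 0.923 to 1.22 for the others, so its rank depends on the scale. The labelled cell type was checked against marker lists. All 10 myotube markers reached 10 TPM in each dCas9-KRAB library, with a summed TPM of 16250 to 18578, and none did in dCas9-KRAB-En5, where the sum was 6.26 to 16.2. Of 8 myoblast markers, 4 reached 10 TPM in each dCas9-KRAB library and 0 to 2 in dCas9-KRAB-En5, and *Pax7* had less than 0.1 TPM throughout. Those that did in dCas9-KRAB-En5 were *Itga7* and *Des*, in replicate 3 only (27.7 and 13.9 TPM). *Myod1* had 33.8 to 111 TPM in dCas9-KRAB and at most 0.0761 TPM in dCas9-KRAB-En5. Macrophage markers were present in both groups. Between 12 and 14 of the 20 reached 10 TPM in each library, among them *Tyrobp*, *Csf1r* and *Cd68*, while *C1qa*, *C1qb* and *C1qc* did not exceed 0.982 TPM and *Mrc1* had no reads. Their summed TPM was 4335 to 5003 in dCas9-KRAB and 5877 to 9069 in dCas9-KRAB-En5. The macrophage markers differed in sign, with log2 fold changes of 2.75 for *Itgam* and 1.14 for *Cd14* but -0.32 for *Spi1* and -1.10 for *Mpeg1*. Most of those tested had a positive value, and the negative ones were *Fcer1g*, *C1qb*, *Spi1*, *Mpeg1*, *Aif1* and *Cx3cr1*. The fibroblast and mesenchymal list summed to 191 to 575 and 264 to 1184 TPM, respectively, but *Vim* alone held 89.1% to 95.7% of that sum in dCas9-KRAB-En5. Without *Vim* the list summed to 44.9 to 199 TPM in dCas9-KRAB and 28.9 to 51.7 TPM in dCas9-KRAB-En5, and the endothelial, lymphocyte and epithelial lists stayed at or below 11.1 TPM. In such bulk samples, fewer cells of a type and less RNA per cell cannot be told apart, and the part of these marker differences in the values of the members was not tested.

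**Figure D1:**
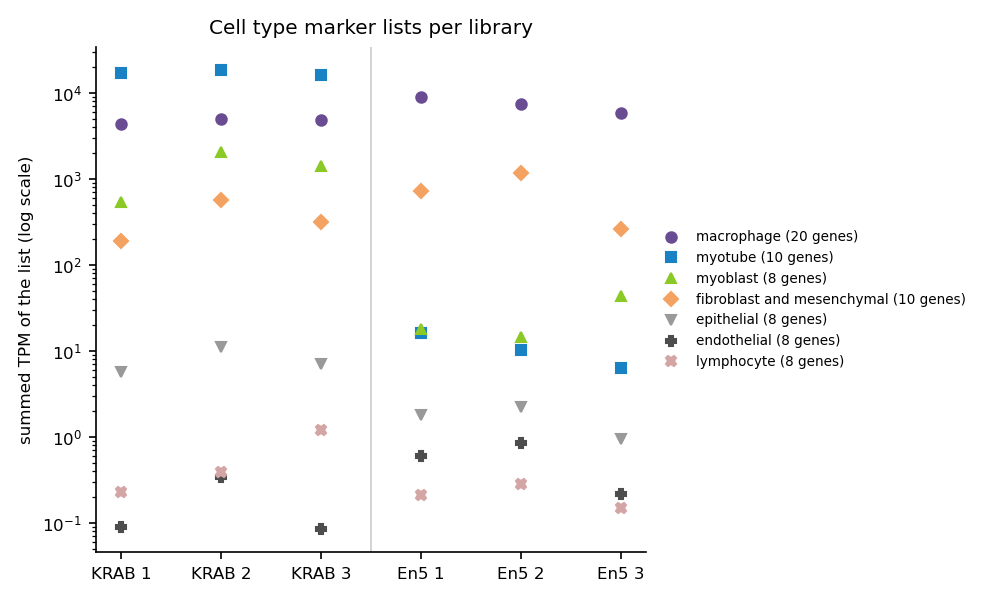
Summed TPM (log axis) of each list of cell type markers in the 3 dCas9-KRAB (KRAB) and 3 dCas9-KRAB-En5 (En5) libraries, 1 point a library. The myotube list lies at 16250 to 18578 TPM in dCas9-KRAB and at 6.26 to 16.2 TPM in dCas9-KRAB-En5, and the macrophage list lies at 4335 TPM or above in all 6 libraries.

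The question was how these signalling genes differed between cells that express *Myog* and cells in which its enhancer was repressed. Among the members, *Inhba* rose and no member fell when a call required both an adjusted p of 0.01 or less and a log2 fold change of 1 or more in size (edgeR quasi-likelihood test, dCas9-KRAB-En5 over dCas9-KRAB). Thus 1 of 9 tested members was called, against 6.19% of all genes tested. At an unadjusted p under 0.05, 3 members were lower and 3 higher, as were 16.3% and 16.6% of all genes. DESeq2 called 1 member lower and 2 higher, against 8.66% and 5.88% of the 16436 genes it tested. At the edgeR cutoffs, 4.67% of all genes were called lower and 1.52% higher. In the model with a replicate block, *Gdf11* was called lower and *Inhba* higher, where 6.79% of all genes were called lower and 3.94% higher. TPM ranges of the groups did not overlap for 5 members. *Gdf11*, *Tgfb3* and *Fst* were lower, which 19.7% of all genes were, and *Inhba* and *Tgfbr2* were higher, which 7.76% of all genes were. The median log2 fold change was -0.020 over the 9 members and 0.075 over all genes tested.

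**Figure D2:**
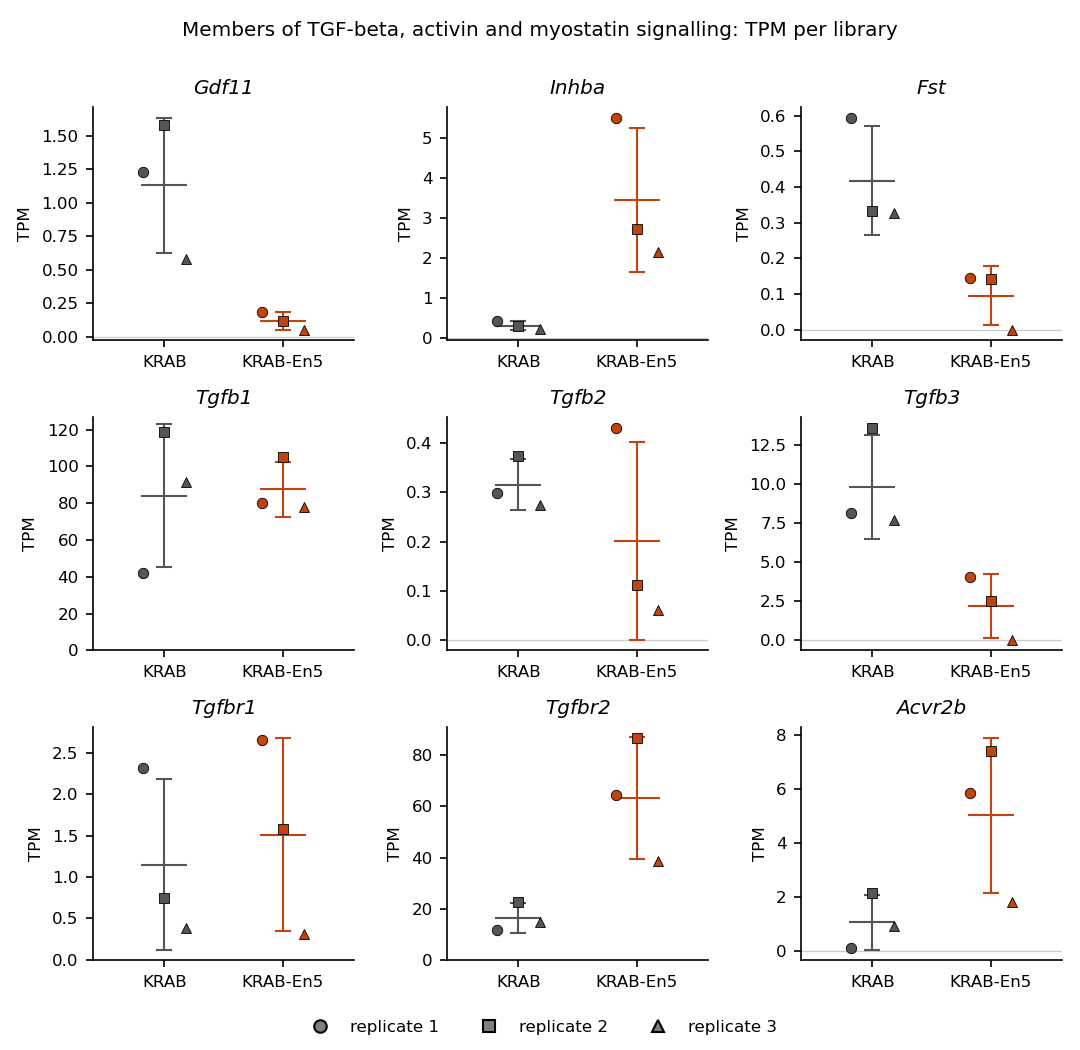
TPM (linear axis) of the 9 detected members in each library, with symbols for replicates 1 to 3 and bars for the mean ± SD (n = 3) of dCas9-KRAB (KRAB) and dCas9-KRAB-En5 (KRAB-En5) cells. *Gdf11*, *Fst* and *Tgfb3* are lower in all dCas9-KRAB-En5 libraries and *Inhba* and *Tgfbr2* are higher, and the other 4 overlap.

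**Figure D3:**
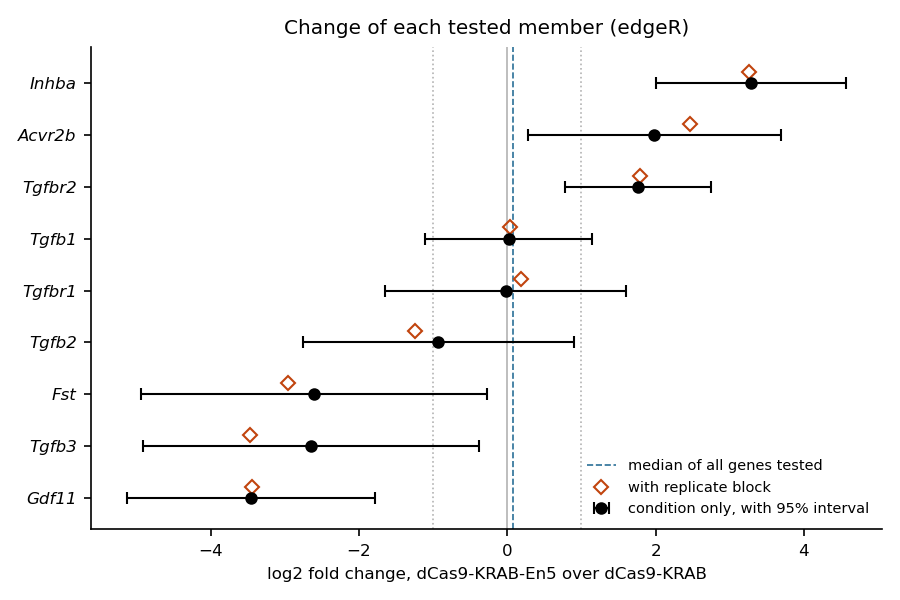
Log2 fold change (dCas9-KRAB-En5 over dCas9-KRAB) of each tested member from edgeR with its 95% confidence interval (filled), and the estimate with the replicate block (open). Dotted lines mark the cutoffs of 1 in size and the dashed line the median of all genes, and of the members only *Inhba*, at 3.29, was called with condition alone in the model.

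Levels differed widely among the members. In dCas9-KRAB cells, the order by TPM was *Tgfb1* (84.1 ± 38.7, SD, n = 3), *Tgfbr2* (16.5 ± 5.69) and *Tgfb3* (9.80 ± 3.31), followed by *Tgfbr1*, *Gdf11*, *Acvr2b*, *Fst*, *Tgfb2* and *Inhba*, all with means of at most 1.15 TPM. The ranges of *Tgfbr2* and *Tgfb3* overlapped, as did those of each pair of neighbours from *Tgfbr1* down to *Inhba*. In dCas9-KRAB-En5 cells, *Tgfb1* (87.7 ± 14.9, SD, n = 3) and *Tgfbr2* (63.2 ± 23.8) led with overlapping ranges. *Acvr2b* (5.02 ± 2.87) and *Inhba* (3.46 ± 1.80) came next, and *Gdf11* (0.119 ± 0.0661) and *Fst* (0.0951 ± 0.0824) were the lowest of the detected members. The ranges of *Acvr2b*, *Inhba* and *Tgfb3* overlapped in turn. *Inhba* thus stood last of the 9 detected members in dCas9-KRAB cells, whereas in dCas9-KRAB-En5 cells its mean was above those of *Gdf11*, *Fst*, *Tgfb2* and *Tgfb3*.

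*Mstn* (ENSMUSG00000026100, GRCm38 chr1:53061640-53068079, plus strand, 3 exons) encodes myostatin and lies 81.2 Mb from *Myog* on the same chromosome. No read was counted for it in any of the 6 libraries. A floor of 3 counts corresponded to 0.0248 to 0.0409 TPM in dCas9-KRAB and 0.0485 to 0.0654 TPM in dCas9-KRAB-En5, below the level of *Gdf11* in every library. *Mstn* was therefore not detectable at this depth in either group and was not tested.

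*Gdf11* (ENSMUSG00000025352, chr10:128882295-128891718, minus strand, 3 exons) encodes the ligand most similar to myostatin. Its counts in replicates 1 to 3 were 136, 240 and 106 in dCas9-KRAB against 16, 8 and 5 in dCas9-KRAB-En5. The TPM were 1.23, 1.58 and 0.583 against 0.186, 0.116 and 0.0538. Every dCas9-KRAB-En5 library lay below every dCas9-KRAB library, although both groups were near or below 1 TPM. The log2 fold change was -3.46 (SE 0.764, 95% interval -5.13 to -1.79) with an edgeR adjusted p of 0.0110, just outside the cutoff. With the replicate block the change was -3.44 and the adjusted p 0.00987, inside it. Without dCas9-KRAB-En5 replicate 3 the change was -3.46 and the adjusted p 0.00369, and 14.0% of all genes were then called lower and 11.7% higher.

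*Inhba* (ENSMUSG00000041324, chr13:16011851-16031621, plus strand) encodes the inhibin beta A subunit, whose homodimer is activin A. It had 74, 71 and 62 counts in dCas9-KRAB and 745, 295 and 313 in dCas9-KRAB-En5. The TPM were 0.427, 0.297 and 0.217 in dCas9-KRAB and 5.50, 2.72 and 2.14 in dCas9-KRAB-En5. The groups did not overlap, and the lowest dCas9-KRAB-En5 library was above the highest dCas9-KRAB library on both scales. The change was 9.77-fold, or 3.29 on the log2 scale (SE 0.586, 95% interval 2.01 to 4.57, edgeR adjusted p = 0.00390). Each same-numbered pair of libraries showed the increase, and with the replicate block the adjusted p was 6.10e-04. The call was lost without dCas9-KRAB replicate 1 (edgeR adjusted p = 0.0183), replicate 2 (0.0289) or replicate 3 (0.0280) and without dCas9-KRAB-En5 replicate 1 (0.01005), with a log2 fold change of at least 3.04 in each of these fits. The summed TPM of macrophage markers was also higher in dCas9-KRAB-En5 (1.57-fold in the means). Without *Cd14* it was 3734 to 4399 TPM in dCas9-KRAB and 5352 to 6063 TPM in dCas9-KRAB-En5. Its part in the *Inhba* value was not tested.

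The tested genes with a mean of at least 5 TPM whose profile over the 6 libraries was most like that of *Inhba* were *Gm26581* and *Gm10825*. Their centred log2(TPM + 1) values differed from those of *Inhba* by a root mean square of 0.0775 and 0.143, respectively. Adding 1 shrinks the change of a gene as low as *Inhba*, which was 1.69 on that scale with limma against 3.29 with edgeR. In edgeR both genes had a smaller log2 fold change of 1.91, and neither was called (adjusted p = 0.0145 and 0.0124). *Gm26581* had 4.13 to 4.42 TPM in dCas9-KRAB and 11.4 to 26.5 TPM in dCas9-KRAB-En5.

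Within the 3 members *Inhba*, *Gdf11* and *Mstn*, the make-up was opposite in the groups. *Inhba* contributed 25.7%, 15.8% and 27.1% of their summed TPM in dCas9-KRAB libraries and *Gdf11* the rest. In dCas9-KRAB-En5 libraries, *Inhba* contributed 96.7%, 95.9% and 97.5%. The means differed by 73.9 percentage points (two-sided exact permutation test over libraries, p = 0.1, the smallest p that 3 against 3 libraries allow). This share was chosen after the values were seen, and it needs no scaling between libraries. *Inhbb*, the beta B subunit of activin, is not a member and was left out of the sum. It had 0.710, 2.25 and 2.04 TPM in dCas9-KRAB and 0.887, 0.665 and 1.96 TPM in dCas9-KRAB-En5. The shares therefore do not cover all activin RNA.

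**Figure D4:**
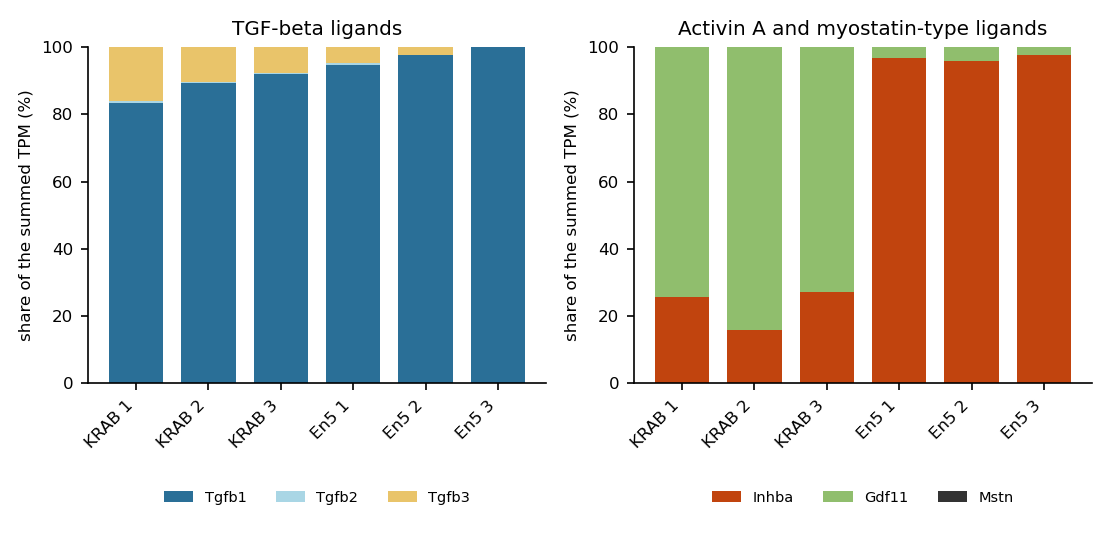
Share (%) of the summed TPM within each library for the TGF-beta ligands and for *Inhba*, *Gdf11* and *Mstn*, in dCas9-KRAB (KRAB) and dCas9-KRAB-En5 (En5) replicates 1 to 3. *Inhbb* is not included. *Tgfb1* makes up 83.3% or more of its group in all libraries, and *Inhba* goes from 15.8% to 27.1% in dCas9-KRAB to 95.9% to 97.5% in dCas9-KRAB-En5.

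*Fst* (ENSMUSG00000021765, chr13:114452290-114458951, minus strand) encodes follistatin. It had 74, 57 and 67 counts in dCas9-KRAB and 14, 11 and 0 in dCas9-KRAB-En5. The TPM were 0.594, 0.332 and 0.326 against 0.144, 0.141 and 0, with no overlap between the groups. The log2 fold change was -2.61 (SE 1.07, 95% interval -4.94 to -0.28), and the edgeR adjusted p of 0.111 missed the cutoff. The ratio of *Fst* to the summed TPM of *Inhba*, *Gdf11* and *Mstn* was 0.358, 0.177 and 0.408 in dCas9-KRAB libraries and 0.0253, 0.0498 and at most 0.0130 in dCas9-KRAB-En5 libraries, where the last value is the bound set by the floor of 3 counts. With that library at its bound, the mean difference on the log2 scale was -3.54, which is then a bound as well and could only be larger in size (two-sided exact permutation test, p = 0.1, the smallest p possible). Without dCas9-KRAB-En5 replicate 3 this difference was -3.06. *Inhbb* was not part of the summed ligands. The exons of *Fst* overlap those of *Gm47040* on the opposite strand. Whether counting used strand is not stated in the sources used here, and reads of such a pair cannot then be told apart.

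*Tgfb1* (ENSMUSG00000002603, chr7:25687002-25705077, plus strand) encodes the TGF-beta isoform that is most widely made by immune and connective tissue cells. It was the most abundant member in both groups. The TPM were 42.1, 118 and 91.6 in dCas9-KRAB and 80.3, 105 and 77.8 in dCas9-KRAB-En5, so that the groups overlapped fully. The log2 fold change was 0.020 with a 95% interval of -1.10 to 1.14 (edgeR adjusted p = 0.983), or 0.465-fold to 2.21-fold. The sign was not stable. It was negative with total counts alone, and it was -0.32 without dCas9-KRAB replicate 1, which had the lowest value, and -0.47 without dCas9-KRAB-En5 replicate 3.

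*Tgfb3* (ENSMUSG00000021253, chr12:86056745-86079041, minus strand) encodes an isoform known for its part in palate fusion. It had 746, 1723 and 1161 counts in dCas9-KRAB and 289, 143 and 0 in dCas9-KRAB-En5. The TPM were 8.13, 13.6 and 7.66 against 4.03, 2.49 and 0. The groups did not overlap, and replicate 3 of dCas9-KRAB-En5 had no reads, where the floor of 3 counts was 0.0388 TPM. The log2 fold change was -2.64 (SE 1.04, 95% interval -4.91 to -0.38, edgeR adjusted p = 0.0980), and it was -3.48 with the replicate block (adjusted p = 0.0155). Without dCas9-KRAB-En5 replicate 3, *Tgfb3* was called lower with a log2 fold change of -2.15 (adjusted p = 0.00410), as were 14.0% of all genes. The exons of *Tgfb3* overlap those of *Gm37804* and *Gm48008* on the opposite strand.

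*Tgfb2* (ENSMUSG00000039239, chr1:186622792-186705989, minus strand) encodes the isoform with low affinity for the type II receptor alone. It was scarce, with 47, 81 and 71 counts in dCas9-KRAB and 53, 11 and 8 in dCas9-KRAB-En5. The TPM were 0.299, 0.374 and 0.274 in dCas9-KRAB and 0.432, 0.112 and 0.0604 in dCas9-KRAB-En5. On that scale the dCas9-KRAB-En5 replicates lay on both sides of the dCas9-KRAB values. The log2 fold change was -0.93 (95% interval -2.76 to 0.89, edgeR adjusted p = 0.470). Its exons overlap *Gm29491* on the opposite strand. Of the summed TPM of the 3 TGF-beta ligands, *Tgfb1* made up 83.3%, 89.4% and 92.0% in dCas9-KRAB libraries and 94.7%, 97.6% and 99.9% in dCas9-KRAB-En5 libraries. The difference of 9.15 percentage points had no overlap between the groups (two-sided exact permutation test, p = 0.1, the smallest p possible). Without dCas9-KRAB-En5 replicate 3 it was 7.89. *Tgfb3* made up most of the remainder, with 16.1%, 10.3% and 7.70% against 4.75%, 2.32% and 0%. The *Tgfb3* share was added after the values were seen.

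*Tgfbr2* (ENSMUSG00000032440, chr9:116084293-116175360, minus strand) encodes the type II receptor that binds TGF-beta. It had 11.7, 22.8 and 14.9 TPM in dCas9-KRAB and 64.4, 86.3 and 38.8 TPM in dCas9-KRAB-En5. The groups did not overlap, and each same-numbered pair showed the difference. The log2 fold change was 1.76 (SE 0.449, 95% interval 0.78 to 2.75), and the edgeR adjusted p of 0.0212 missed the cutoff. With the replicate block it was 0.0110, still outside. Without dCas9-KRAB-En5 replicate 3 it was 0.00493, and *Tgfbr2* was then called higher, as were 11.7% of all genes. The macrophage marker sum differed in the same direction, and its part was not tested.

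*Acvr2b* (ENSMUSG00000061393, chr9:119402118-119434995, plus strand) encodes a type II receptor of activin and myostatin and lies 3.23 Mb from *Tgfbr2*. It had 12, 313 and 164 counts in dCas9-KRAB and 486, 492 and 164 in dCas9-KRAB-En5. The TPM were 0.113, 2.13 and 0.932 against 5.84, 7.39 and 1.82. dCas9-KRAB-En5 replicate 3 fell below dCas9-KRAB replicate 2, so the groups overlapped, although each same-numbered pair was higher in dCas9-KRAB-En5. The log2 fold change was 1.99 (SE 0.781, 95% interval 0.28 to 3.69, edgeR adjusted p = 0.0986).

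*Tgfbr1* (ENSMUSG00000007613, chr4:47353222-47414931, plus strand) encodes the type I receptor of TGF-beta, also called ALK5. The TPM were 2.32, 0.744 and 0.383 in dCas9-KRAB and 2.65, 1.58 and 0.308 in dCas9-KRAB-En5. The spread within each group exceeded the difference between them, with a log2 fold change of -0.020 (95% interval -1.65 to 1.61, edgeR adjusted p = 0.988). In both groups, replicate 1 was the highest and replicate 3 the lowest. With the replicate block the change was 0.18 (adjusted p = 0.833).

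The wider pathway was described with 98 other genes, of which 83 had reads and 66 were tested. At the same cutoffs edgeR called 7 lower and 0 higher, against 4.67% and 1.52% of all genes, and at an unadjusted p under 0.05 there were 20 lower and 13 higher, against 16.3% and 16.6%. With the replicate block, 8 were lower and 4 higher, against 6.79% and 3.94%. DESeq2 called 15 of the 66 lower and 6 higher, against 8.66% and 5.88% of all genes, and called 2 more lower that edgeR had not tested. Without dCas9-KRAB-En5 replicate 3, where the genes tested differed, 17 pathway genes were lower and 11 higher, against 14.0% and 11.7%. The median log2 fold change of the 66 was -0.17. The genes that fell were 1 of 8 tested ligands, 1 of 9 extracellular inhibitors, 3 of 11 genes of latency and activation and 2 of 14 target genes.

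**Figure D5:**
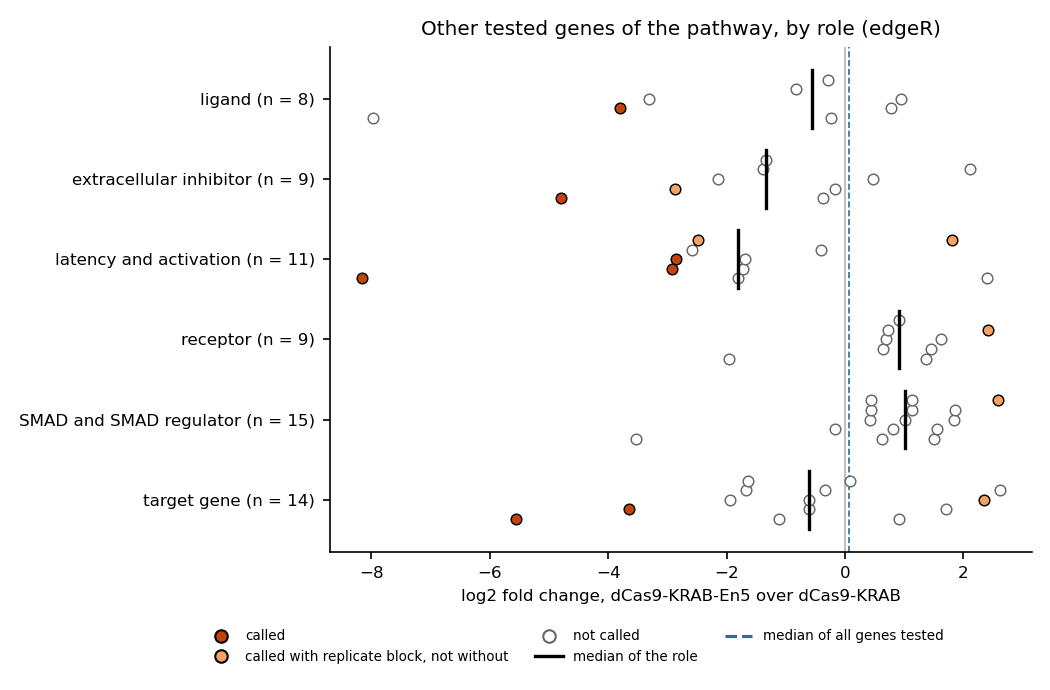
Log2 fold change (dCas9-KRAB-En5 over dCas9-KRAB) of the 66 other tested pathway genes by role, 1 point a gene, filled where called. The median lies at 0.91 for receptors and 1.01 for SMADs and their regulators but at -1.81 for latency and activation, and the points near -8 are *Bmp4* and *Itgb6*, which had no reads in dCas9-KRAB-En5 and whose fitted value is no measured fold.

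Among other ligands, *Gdf15*, a stress-induced distant member of the family, fell by 3.80 on the log2 scale (edgeR adjusted p = 0.00604), from 48.9, 94.8 and 77.3 TPM in dCas9-KRAB to 3.59, 2.36 and 7.29 TPM in dCas9-KRAB-En5. *Inhbb*, the beta B subunit of activin, had 1.66 ± 0.833 TPM in dCas9-KRAB and 1.17 ± 0.693 TPM in dCas9-KRAB-En5 (SD, n = 3), and its log2 fold change was -0.23 with an edgeR adjusted p of 0.862. 

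Of the extracellular inhibitors, *Chrd*, which encodes the BMP antagonist chordin, fell by 4.80 on the log2 scale (edgeR adjusted p = 0.00234). Its TPM were 2.23, 6.12 and 4.77 in dCas9-KRAB and 0.128, 0.0754 and 0.209 in dCas9-KRAB-En5, and its exons overlap those of *Thpo* on the opposite strand. *Nbl1*, which encodes a further BMP antagonist, missed the edgeR cutoff with condition alone (adjusted p = 0.0297) and was called lower with the replicate block (-3.54, edgeR adjusted p = 0.00148) and with DESeq2 (adjusted p = 0.00141), with 236 ± 83.2 TPM in dCas9-KRAB and 25.4 ± 19.0 TPM in dCas9-KRAB-En5. *Fstl3*, a relative of *Fst*, had a log2 fold change of -1.38 (adjusted p = 0.101).

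Of the genes of latency and activation, *Ltbp3* and *Ltbp4*, whose products bind latent TGF-beta in the matrix, fell by 2.93 and 2.86 on the log2 scale (edgeR adjusted p = 0.00351 and 0.00344). *Ltbp3* had 7.70, 23.5 and 14.5 TPM against 2.50, 2.15 and 1.65, and *Ltbp4* had 4.15, 12.8 and 7.75 TPM against 1.40, 1.81 and 0.703. *Itgb6*, an integrin subunit that activates latent TGF-beta, had 30, 33 and 69 counts in dCas9-KRAB and none in dCas9-KRAB-En5, which made it at least 8.55-fold lower against a floor of 3 counts per library (edgeR adjusted p = 0.00992, and 0.0159 with the replicate block). *Bmp1*, a protease that cleaves latency and matrix proteins, missed the cutoff with condition alone (edgeR adjusted p = 0.0187) and was called lower with the block (-2.51, adjusted p = 0.00530) and with DESeq2 (adjusted p = 0.00110). *Furin*, the convertase that cleaves the ligand precursors, likewise missed it (adjusted p = 0.0315) and was called higher with the block (1.93, adjusted p = 0.00971) and with DESeq2 (adjusted p = 0.00596). It was present at 7.46, 25.4 and 17.5 TPM in dCas9-KRAB and 69.7, 102 and 35.0 TPM in dCas9-KRAB-En5. The median over the 11 tested genes of this role was -1.81.

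Receptors and SMADs had mostly positive log2 fold changes. Of 9 other tested receptors, 8 had a positive log2 fold change, with a median of 0.91, and of 15 SMADs and SMAD regulators 13 did, with a median of 1.01. Over all genes tested, 52.3% had a positive value. edgeR called 0 of these 24 genes with condition alone, against 1.52% of all genes called higher and 4.67% lower. At an unadjusted p under 0.05, 8 were higher and 1 lower, against 16.6% and 16.3% of all genes. DESeq2 called 1 receptor higher and 1 SMAD regulator in each direction, against 5.88% higher and 8.66% lower of all genes it tested. With the replicate block, *Bmpr2*, a type II BMP receptor, was called higher (2.34, edgeR adjusted p = 0.00647), as was *Smad7*, an inhibitory SMAD (2.47, adjusted p = 0.00728). That model called 3.94% of all genes higher. *Smad7* had 0.375, 0.863 and 0.420 TPM in dCas9-KRAB and 6.85, 4.68 and 1.01 TPM in dCas9-KRAB-En5. *Smad3* and *Smad4* had log2 fold changes of 1.51 and 1.85 (edgeR adjusted p = 0.0898 and 0.0473). In TPM, dCas9-KRAB-En5 replicate 3 was the lowest library of its group for all 24 of these genes, against 77.0% of all genes tested. On that scale it lay within the dCas9-KRAB range for *Smad3* but below that range for *Smad4* (3.13 against 3.37 to 6.82 TPM). It was also below in TPM for *Smad2*, *Smad5*, *Skil*, *Tgif1*, *Acvr1* and *Bmpr1a*, among others. In CPM it lay within the range for *Acvr1* (3.90 against 3.84 to 8.34) and at its lower end for *Smad4* (8.357 against 8.359 to 14.2). The edgeR changes also use a TMM factor, 0.730 for this library, so the TPM positions do not carry over to them. TPM ranges of the groups did not overlap for 2 receptors and 1 SMAD gene that were higher and for 1 of each role that was lower. Over all genes tested, 7.76% were higher and 19.7% lower without overlap.

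Target genes of TGF-beta and BMP signalling moved in different directions. *Acta2*, smooth muscle actin, fell by 5.56 on the log2 scale (edgeR adjusted p = 0.00644), from 160, 339 and 263 TPM to 1.93, 0.806 and 8.79 TPM, and *Col1a1*, a collagen I chain, fell by 3.65 (adjusted p = 0.00620), from 9.73, 68.0 and 33.6 TPM to 2.52, 2.70 and 3.08 TPM. The myoblast marker sum moved with them, from 537 to 2048 TPM in dCas9-KRAB to 14.5 to 43.2 TPM in dCas9-KRAB-En5. The fibroblast and mesenchymal sum was 2.01-fold higher in the means of dCas9-KRAB-En5, but without *Vim* it was 44.9 to 199 TPM in dCas9-KRAB and 28.9 to 51.7 TPM in dCas9-KRAB-En5, ranges that overlap. The part of these sums was not tested. *Id2*, an inhibitor of bHLH factors, missed the edgeR cutoff with condition alone (adjusted p = 0.0215) and was called higher with the replicate block (2.13, adjusted p = 0.00624) and with DESeq2 (adjusted p = 0.00144), from 14.5, 8.04 and 11.8 TPM to 153, 57.5 and 17.3 TPM. *Id1* did not differ beyond its spread, with a log2 fold change of 0.081 (adjusted p = 0.919), and *Cdkn1a* had a change of -0.33 (adjusted p = 0.665).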

How the data were processed

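PolyA RNA of 6 libraries was sequenced from paired ends. Per the labels and the methods of the study, reads were aligned to GRCm38 with HISAT2 2.2.1 and counted per gene with featureCounts. The authors deposited raw counts and, beside them, TPM, in which each count is taken per gene length and each library sums to 1000000. The annotation release and strand setting are not given in the sources used here. Genes absent from a library were taken as 0, since the listed TPM already reach that sum. Of 23231 gene IDs, 23155 matched a symbol in GENCODE vM21.

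Counts were fitted with edgeR 4.0.16 (R 4.3.3), with TMM, filterByExpr (minimum count 10, minimum total 15), glmQLFTest, condition alone and Benjamini-Hochberg adjustment over 14378 genes. Calls needed an adjusted p of 0.01 or less and a log2 fold change of 1 or more in size. Standard errors and 95% intervals were derived from the F statistic. Alternatives were DESeq2 1.42.0, limma-trend (3.58.1) with TPM on the log2 scale after adding 1 or 0.1, other normalizations, filters and cutoffs, the replicate block and leaving out each replicate. The fit was tested on simulated counts with the same dispersion for every gene, no pairing and no library set apart. That setting is simpler than these libraries, so it does not show how the fit behaves on them. Shares and ratios were compared with two-sided exact permutation tests over the 6 libraries (smallest p 0.1).

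Replicate numbers come from the labels. Same-numbered libraries deviated together from their group means (correlations 0.27, 0.22 and 0.29 across genes, against -0.34 to -0.05 for other pairs). Centring each group on its mean pushes the correlations of other pairs down where those of same-numbered pairs are positive. Same-numbered libraries may thus be paired, which the labels do not state. The main test, its intervals and its counts of calls used condition alone. Values with the replicate block are given where they change a call.

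The members and gene lists were chosen with earlier results of these data known. All members are named. Of the other pathway genes, up to 4 called genes per role and direction with the largest change were named, with the 2 genes most like each called member. *Inhbb*, *Fstl3*, *Smad3*, *Smad4*, *Id1*, *Cdkn1a* and *Bmp4* and the genes that edgeR called with the block but not without it, and single markers, were added after their values were seen. Some items are not reported here.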

Additional observations from a re-analysis of the deposited data

How the results depend on the processing

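The members called lower and higher, 0 and 1, were the same with the size factors of DESeq2, with total counts only and with at least 10 counts in every library. The lower count was 2 without the low-count filter and 1 with the replicate block, with DESeq2 and at an adjusted p of at most 0.05. The higher count was 2 with DESeq2 and at 0.05 and 0 with limma on either TPM scale. Leaving out 1 replicate gave 0 to 2 lower and 0 to 2 higher, with 2 and 2 only without dCas9-KRAB-En5 replicate 3. The block changed the call of *Gdf11* and of no other member.

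Of the other pathway genes, 7 lower and 0 higher became 14 and 7 without the filter, 17 and 6 with DESeq2 (2 of the 17 not tested by edgeR), 15 and 7 at 0.05, 4 lower with limma on log2(TPM + 1) and 4 higher with the block. Leaving out 1 replicate gave 0 to 17 lower and 0 to 11 higher. The 890 calls over all genes became 586 with total counts only, 2198 without the filter, 544 with at least 10 counts in every library, 1543 with the block, 2390 with DESeq2, 514 with limma on log2(TPM + 1) and 2449 at 0.05, and 222 to 3921 without 1 replicate. The share of lower calls was 75.4%, and 88.1% with total counts only. Over all alternatives it ran from 54.3% without the filter to 97.3% without dCas9-KRAB replicate 1, and it was 54.4% without dCas9-KRAB-En5 replicate 3. The causes were not tested.

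*Inhba* kept its direction in all 15 alternatives (adjusted p 3.63e-07 to 0.0289) and its call in 9. The sign of *Tgfb1* reversed with total counts only (-0.015), no filter (-0.0050), at least 10 counts in every library (-0.026) and DESeq2 (-0.00055), and ranged from -0.47 to 0.22 without 1 replicate. The sign of *Tgfbr1* reversed with total counts only (0.11), the block (0.18) and limma on log2(TPM + 1) (0.21) and log2(TPM + 0.1) (0.31), and ranged from -0.63 to 1.04 without 1 replicate. The *Inhba* share differed by 66.2 percentage points with CPM in place of TPM, an alternative added after the data were examined. *Gdf11*, *Fst*, *Inhba* and *Mstn* lie at counts where depth limits precision.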
